A study of Mus musculus with 6 samples.

Results

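The genes described here are 36 mouse genes of glycolysis and of pyruvate and lactate metabolism, chosen by name so that germ-cell isozymes could be set against their somatic paralogues. Of these, 33 were found among the 14455 protein-coding genes (RefSeq NM_ transcripts) of the deposited tables, and Gpi1, Pfkfb1 and Pfkfb4 were not analysed here. The study profiled the long noncoding RNAs of mature mouse sperm together with its mRNAs, and sperm against testes is the contrast that the deposited samples allow. Total RNA depleted of ribosomal RNA was sequenced from 4 sperm samples and 2 testes samples of untreated C57BL/6 mice (C57BL/6J in the study's methods) aged 3 to 5 months by the labels, where the methods give a younger range. Sperm were collected from the vas deferens and cauda of the epididymis, pooled over animals and treated with a buffer that lyses somatic cells, and the testes came from the same mice. The authors left sperm replicate 1 out after comparing the replicates, so the tests compare the other 3 sperm samples with both testes samples, and the values of replicate 1 are given beside them.

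Glycolysis splits glucose into pyruvate and yields ATP without oxygen, and lactate dehydrogenase interconverts pyruvate and lactate while regenerating the NAD+ that the pathway needs. Sperm glycolysis takes place largely in the principal piece of the flagellum, where several of its enzymes are bound to the fibrous sheath. Many steps are carried out in spermatids and sperm by isozymes from separate genes that are expressed in germ cells: Aldoart1 and Aldoart2 (aldolase), Gapdhs (glyceraldehyde-3-phosphate dehydrogenase), Pgk2 (phosphoglycerate kinase), Eno4 (enolase), Ldhc (lactate dehydrogenase) and Pdha2 (the E1 alpha subunit of pyruvate dehydrogenase).

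Depth differed between the groups. The estimated counts on NM_ transcripts summed to 42390 in sperm replicate 1, to 33511 to 100027 in the compared sperm samples and to 314273 to 322625 in testes, so that 3 counts, taken as the detection floor, corresponded to 30.0 to 89.5 CPM (estimated counts scaled to an NM_ total of 1000000) in sperm replicates 2 to 4 and to 9.30 to 9.55 CPM in testes. Floors and intervals cover counting error only. Markers of spermatids and sperm summed to 1274 to 2503 CPM over the 4 sperm samples and 1860 to 2543 CPM in testes, but most of the sperm sum was the protamine Prm2 (1062, 1480, 1462 and 2392 CPM), the only marker listed in all 4. Of the 6 markers tested, edgeR called Prm1, Tnp1 and Odf1 lower and none higher, with a median log2 fold change of -3.86. Over all genes tested 24.0% were called lower, and the median was -1.22. Among the compared samples, Prm1, Tnp1 and Odf1 reached the 5 counts needed for testing only in testes, so nothing is read from these calls. Odf1 was at 0 in every sperm sample. All 7 markers of spermatogonia and spermatocytes were at 0 in every sperm sample and summed to 62.0 and 121 CPM in testes. Kit and Zbtb16 were at 0 in testes as well, so these genes do not separate the groups. Leydig cell markers summed to 0, 170, 1194 and 110 CPM over sperm replicates 1 to 4, against 580 and 535 CPM in testes, with Cyp11a1, Hsd3b1 and Insl3 at 0 in every sperm sample. Most of these sums was the single gene Star, at 0, 160, 1194 and 110 CPM in sperm and 521 and 471 CPM in testes. Sertoli cell markers reached at most 40.0 CPM in sperm and 65.1 CPM in testes. The part of these cell types in the results below was not tested, and in bulk RNA fewer cells of a type and less RNA per cell cannot be told apart.

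Most of the 33 genes were close to or below the detection floor in sperm, as were most genes of the tables. The tables listed 4, 21, 6 and 10 of them over sperm replicates 1 to 4, against 27 and 30 in testes. The drop was not particular to these genes, since 2025, 6733, 1552 and 3316 of all 14455 genes were listed in the sperm samples, against 12250 and 11537 in testes. The mean was 12.3 ± 7.77 (SD, n = 3) in the compared sperm samples and 28.5 ± 2.12 (SD, n = 2) in testes, and the exact two-sided permutation test gave p = 0.2, the smallest value that 3 against 2 samples allow. After thinning every sample to 33510 NM_ counts, the means were 10.4 ± 4.62 and 18.1 ± 2.16 genes. Only 3 genes were listed in all 4 sperm samples (Hk1, Eno1b and Pfkfb2), 16 were listed in a single sperm sample, 13 of them in replicate 2, the deepest, and 9 in none. The genes together held 0.418%, 0.544%, 0.555% and 0.494% of the NM_ counts in sperm replicates 1 to 4, against 0.626% and 0.886% in testes, and Eno1 and Eno1b accounted for 68.8% to 92.1% of those counts in each sample.

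**Figure D1:**
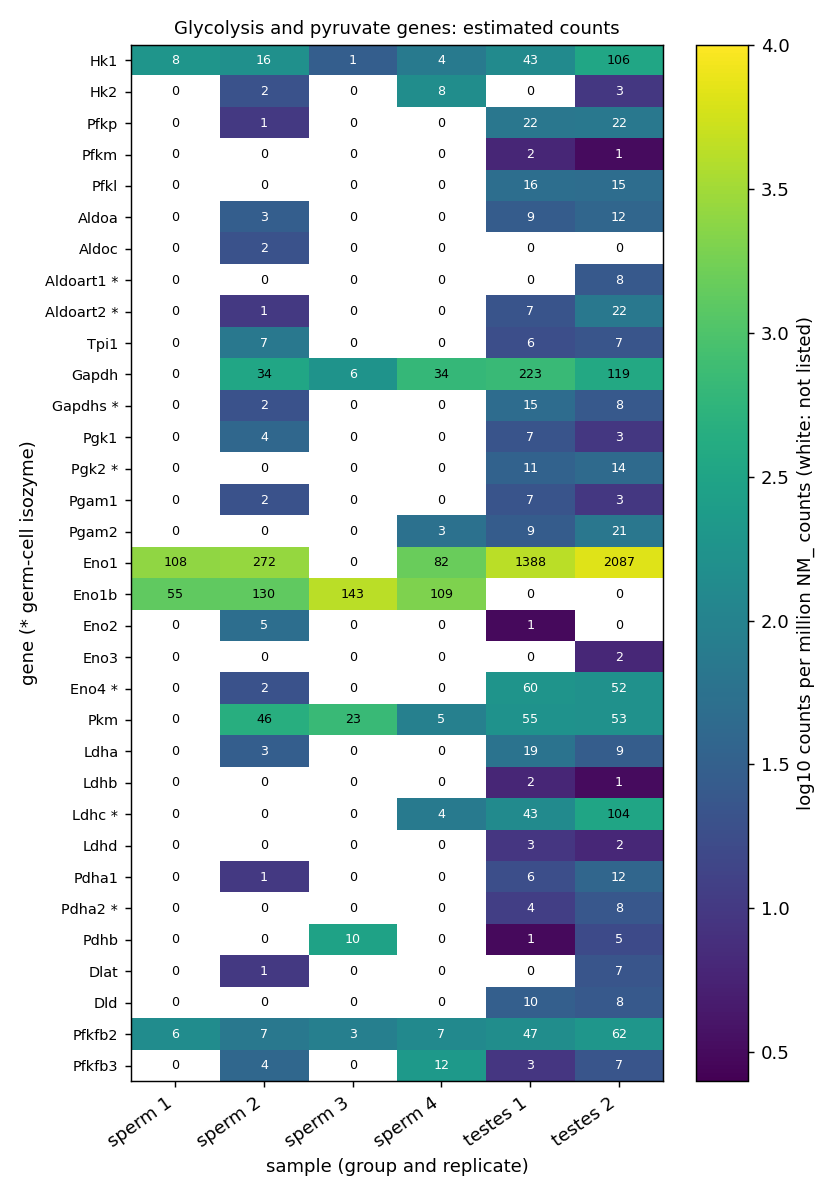
Estimated counts of the 33 listed genes (printed in each cell) in the 4 sperm and 2 testes samples, coloured by log10 CPM, with white cells for genes not listed and asterisks for germ-cell isozymes. Sperm columns are mostly white, with 4 to 21 genes listed, against 27 and 30 in testes.

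Across all 5381 genes with at least 5 counts in at least 2 of the 5 samples, edgeR's quasi-likelihood test with Benjamini-Hochberg adjustment called 6.11% higher and 24.0% lower in sperm at an adjusted p below 0.05 and a fold above 2. Of the 33 genes 21 passed the filter, 12 of them only through testes, so the filter favoured a lower sperm value for those. In this set 1 gene (4.76%) was called higher, Eno1b, and 5 (23.8%) lower, Pfkl, Pgk2, Eno1, Eno4 and Dld, which is close to the share over all genes. Of these 5, all but Eno1 had passed the filter only through testes, and Eno1b, at 0 counts in testes, had passed only through sperm. The median log2 fold change was -1.56 over these 21 genes and -1.22 over all genes tested. Sperm values lay below both testes values without overlap for 11 of the 21 (52.4%), against 47.6% of all genes tested, and above them for 1 (4.76%), against 9.33%. When a sperm sample was left out, 1 gene was called lower without replicate 2 (Eno1) and 2 without replicate 4 (Eno1 and Ldhc), while 2 were called higher without replicate 3 (Eno1b and Pfkfb3). Leaving out a testes sample left a single one, assumed to vary like the sperm samples, and only 9 (without replicate 1) or 7 (without replicate 2) genes then passed the filter, so Pfkl, Pgk2, Eno4 and Dld could not be tested. Eno1 was called lower in the first case and no gene in the second. Pgk2, Pfkl and Dld each had an adjusted p of 0.0836 without sperm replicate 2, and without the filter on low counts 0 genes of the set were called in either direction, with 6 at an unadjusted p below 0.05. DESeq2 called 1 gene lower, Eno4, among the 10 genes to which it gave an adjusted p, and gave none to the other 11, Pfkl, Pgk2 and Dld included.

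**Figure D2:**
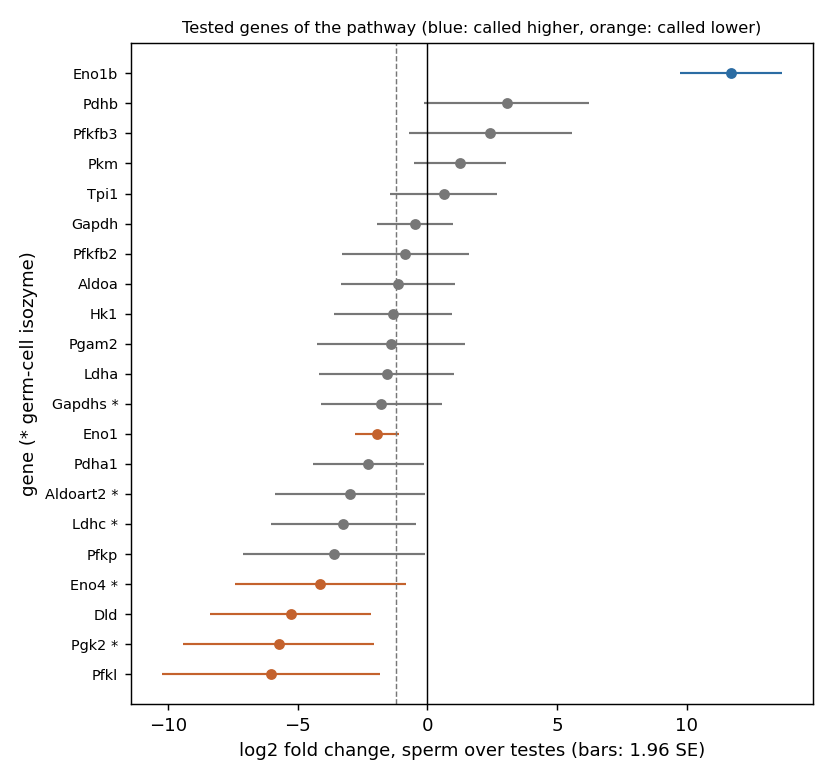
Log2 fold change of sperm over testes for the 21 genes tested, with bars of the 95% interval; the solid line marks no change and the dashed line the median of all 5381 genes (-1.22). Eno1b alone lies far to the right at 11.69, and the 5 genes called lower lie between -6.03 (Pfkl) and -1.93 (Eno1).

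Hexokinases and phosphofructokinases act at early steps of the pathway. Hk1, a hexokinase that phosphorylates glucose and has transcripts particular to spermatogenic cells, had 8, 16, 1 and 4 counts over sperm replicates 1 to 4, against 43 and 106 in testes. On the CPM scale this was 189, 160, 29.8 and 73.6 in sperm and 133 and 337 in testes, so the groups overlapped (edgeR log2 fold change -1.32 ± 1.16 SE, adjusted p = 0.388). Its 2 RefSeq transcripts, of 4157 and 4100 bases, traded places between samples: NM_001146100 held all counts of the gene in sperm replicate 2 and 99.9% in testes replicate 2, whereas NM_010438 held all counts in the other sperm samples and 81.6% in testes replicate 1. Hk2 reached 8 counts in sperm replicate 4 and at most 3 in any other sample. Pfkl, the liver-type phosphofructokinase subunit, was at 0 in all 4 sperm samples and at 16.3 and 15.1 counts in testes. It was called lower (log2 change -6.03 ± 2.14 SE, adjusted p = 0.0274), but against the pooled floor of 3 counts over sperm replicates 2 to 4 the difference was at least 3.09-fold lower and no more was detectable at this depth. Pfkp, the platelet-type subunit, had 1 count in sperm replicate 2 alone, against 22 in each testes sample (log2 change -3.60 ± 1.79 SE, adjusted p = 0.111). Pfkm, the muscle type, had 0 counts in sperm and 2 and 1 in testes.

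Aldolases cleave fructose-1,6-bisphosphate. The ubiquitous Aldoa had 3 counts in sperm replicate 2 alone, against 9 and 12 in testes, and Aldoc had 2 counts in sperm replicate 2 alone. Of the germ-cell aldolases, Aldoart1 had 8 counts in testes replicate 2 and 0 elsewhere, and Aldoart2 had 1 count in sperm replicate 2 and 7 and 22 counts in testes (edgeR log2 fold change -2.99 ± 1.48 SE, adjusted p = 0.109). Tpi1, triose phosphate isomerase, had 7 counts in sperm replicate 2 alone, against 6 and 7 in testes. In these genes every sperm count but those of replicate 2 was 0. Levels of different genes were compared per kilobase, as counts divided by transcript length and scaled to an NM_ total of 1000000. The germ-cell share of the family level per kilobase was 41.0% and 69.1% in testes, and 18.3% in sperm replicate 2 from 6 counts, so no test was possible.

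Gapdh, the somatic glyceraldehyde-3-phosphate dehydrogenase, is on chr6:125161852-125166467 (GRCm38.p6). It had 0, 33.8, 6 and 34.2 counts over sperm replicates 1 to 4, against 223 and 119 in testes. The CPM values of 338, 179 and 630 in sperm replicates 2 to 4 overlapped those of testes (690 and 379), and the gene was not called (edgeR log2 fold change -0.47 ± 0.75 SE, adjusted p = 0.657). The gene total hid a difference between its 2 transcripts. NM_001289726 (1274 bases) had 15.2, 6 and 34.2 counts in the compared sperm samples and 0 in both testes samples, and NM_008084 (1422 bases) had 18.6, 0 and 0 counts in sperm and all of the gene's counts in testes. Tested singly over NM_ transcripts, the shorter was called higher (log2 change 8.72 ± 1.85 SE, adjusted p = 1.19e-04) and the longer lower (-2.85 ± 1.02 SE, adjusted p = 0.0260). The shorter had passed the filter only through sperm, the group where it is high. Transcripts of a gene share sequence, and how the estimation divided shared fragments between them was not tested. Over single transcripts 6.46% of those tested were called higher and 25.8% lower. Counted by gene, which is a different unit, 2 of 19 genes of the set with a tested transcript had a transcript called higher and 6 called lower. Among the latter was Pfkp, which was not called as a gene. Its sperm count was divided as 0.5 over each of 2 transcripts and rounded to 0 before the test (edgeR adjusted p = 0.0154 for each). Gapdhs, on chr7:30729779-30744791, encodes the isozyme of the fibrous sheath. It had 2 counts in sperm replicate 2 alone, against 15 and 8 in testes (log2 change -1.76 ± 1.18 SE, adjusted p = 0.253). It made up 6.13% and 6.15% of the family level per kilobase in testes and 5.20%, 0% and 0% in sperm replicates 2 to 4, a mean difference of -4.41 percentage points (exact permutation p = 0.2, Benjamini-Hochberg adjusted over 3 families 0.3). The counts of 0 left upper 95% Wilson limits of 39.0% and 10.2% of family counts in sperm replicates 3 and 4, so a share like that of testes was within what these depths allow.

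**Figure D3:**
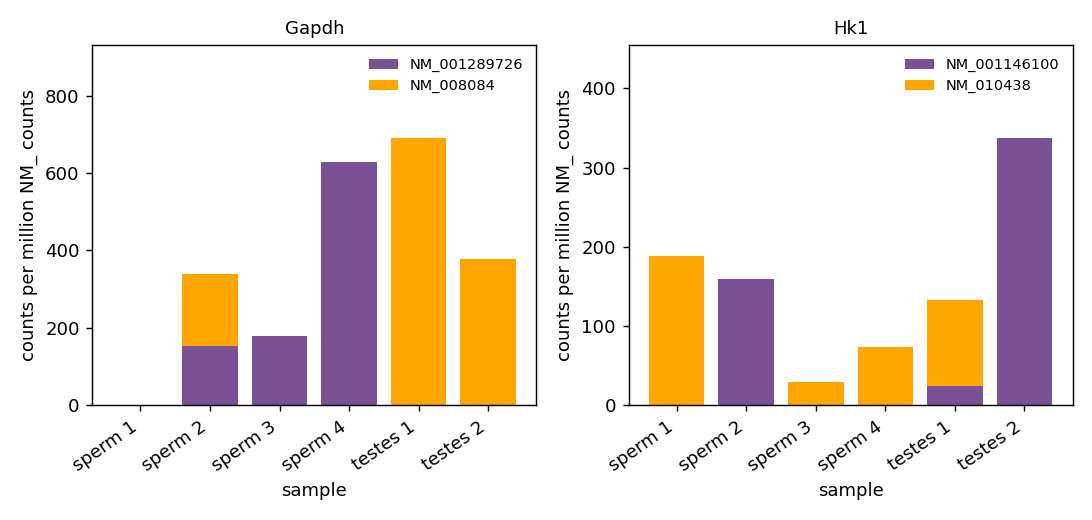
CPM of the 2 RefSeq transcripts of Gapdh (left) and of Hk1 (right), stacked for each sample. For Gapdh the testes bars consist of NM_008084 alone, whereas the bars of sperm replicates 3 and 4 consist of NM_001289726 alone.

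The retrogene Pgk2 is on chr17:40207018-40208609 and replaces the X-linked Pgk1 when the sex chromosomes fall silent in meiosis. Pgk2 had 0 counts in all 4 sperm samples and 11 and 14 counts in testes, where its level per kilobase was 63.6 ± 11.3 (SD, n = 2) against 22.1 ± 12.4 for Pgk1. It was called lower in sperm (edgeR log2 fold change -5.72 ± 1.88 SE, adjusted p = 0.0188), with a bound of at least 2.46-fold lower from the pooled floor. At the testes level, 3.93 counts would have been expected in sperm replicate 2, 1.32 in replicate 3 and 2.14 in replicate 4. Pgk1 had 4 counts in sperm replicate 2 alone, against 7 and 3 in testes. Pgk2 thus held 64.3% and 84.3% of the family level in testes and 0% in sperm replicate 2, the only sperm sample with any count. Among the phosphoglycerate mutases, Pgam1 had 2 counts in sperm replicate 2 only and 7 and 3 in testes, and Pgam2 had 3 counts in sperm replicate 4 only and 9 and 21 in testes.

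Enolases, which form phosphoenolpyruvate, gave the widest separation of the set. Eno1 (chr4:150236708-150248879) encodes alpha-enolase, and Eno1b (chr18:48045335-48048379) is a near-identical copy of it. Eno1 had 108, 272, 0 and 81.6 counts over sperm replicates 1 to 4, against 1388 and 2087 in testes. Eno1b had 55.4, 130, 143 and 109 counts in the sperm samples and 0 in both testes samples. No sperm sample overlapped testes for either gene. Eno1 was called lower (edgeR log2 fold change -1.93 ± 0.43 SE, adjusted p = 2.79e-04) and Eno1b higher (11.69 ± 1.00 SE, adjusted p = 3.36e-28), at least 536.5-fold by the pooled testes floor. Eno1b had passed the filter only through sperm, the group where it is high, so the filter favoured that direction. The call of Eno1 was kept in 8 of 15 alternatives. It was lost with DESeq2 (adjusted p = 0.402), with limma at either pseudocount (0.243 and 0.336), in edgeR without the filter on low counts (0.468), with the replicate block (0.475) and without testes replicate 2 (0.0552), as well as in the sum below, and its log2 fold change ranged from -2.82 to -1.36 when a sample was left out. The call of Eno1b was lost only without the filter (edgeR adjusted p = 0.0846) and in the sum. Summed, the pair had 3845, 4019, 4267 and 3515 CPM over sperm replicates 1 to 4, against 4303 and 6641 CPM in testes. The sum did not pass the test (log2 fold change -0.48 ± 0.38 SE, 95% interval -1.23 to 0.28, adjusted p = 0.349). Eno1b took 34.0% of the pair's counts in sperm replicate 1 (95% Wilson interval 26.9% to 41.3%), 32.4% in replicate 2 (28.0% to 37.1%), 100% in replicate 3 (97.4% to 100%) and 57.3% in replicate 4 (50.0% to 63.9%), against 0% in testes with upper limits of 0.276% and 0.184%. The sperm samples thus differed among themselves in this share by more than their counting error. The values of the 2 genes are uncertain, since fragments common to both could be assigned to either, and the part of that assignment was not tested.

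**Figure D4:**
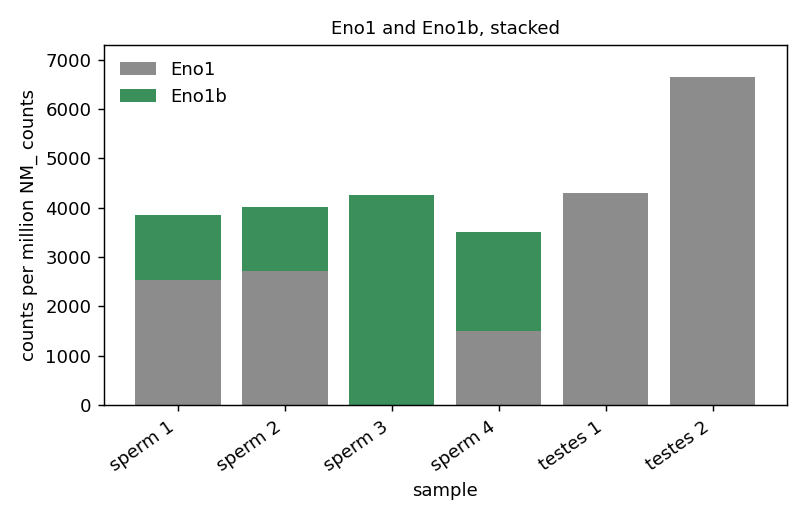
Stacked CPM of Eno1 and Eno1b in each sample. The pair's height is 3515 to 4267 CPM in sperm and 4303 and 6641 CPM in testes, with Eno1b present in the 4 sperm samples and absent from both testes bars.

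Eno4 (chr19:58934058-58971421) encodes an enolase of the sperm flagellum. It had 2 counts in sperm replicate 2 alone, against 60 and 52 in testes, and at the testes level 17.6, 5.89 and 9.55 counts would have been expected in sperm replicates 2 to 4. It was called lower (edgeR log2 fold change -4.12 ± 1.68 SE, adjusted p = 0.0478), and the call was kept in 7 of 13 alternatives. In edgeR the call was lost with TMM factors (adjusted p = 0.0507), with all 4 sperm samples (0.0504) and without sperm replicate 2 (0.0704) or 4 (0.107). It was also lost in edgeR without the filter on low counts (adjusted p = 0.317) and with the replicate block (0.639). The log2 fold change of Eno4 ranged from -8.00 to -3.62 when a sperm sample was left out, the first without replicate 2. Its share of the family level per kilobase was 0.332%, 0% and 0% in the compared sperm samples, against 2.90% and 1.69% in testes, a mean difference of -2.19 percentage points (exact permutation p = 0.2, adjusted p = 0.3). Eno2, the neuronal enolase, had 5 counts in sperm replicate 2 and 1 in testes replicate 1, and Eno3, the muscle enolase, had 2 counts in testes replicate 2 and 0 elsewhere. Pkm, the pyruvate kinase that completes the pathway, had 0, 45.5, 23 and 5 counts over sperm replicates 1 to 4, against 54.7 and 53 in testes. Its CPM values of 455, 686 and 92.0 in sperm replicates 2 to 4 lay on both sides of the testes values of 169 and 169 (log2 change 1.26 ± 0.91 SE, adjusted p = 0.288).

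The lactate dehydrogenase genes Ldha and Ldhc lie side by side on chromosome 7. For each, 250 bases before an annotated transcript start (RefSeq, GRCm38.p6, plus strand) are shown because neighbouring paralogues differ in their germ-cell expression. The reference lists 2 such windows per gene, and the first by position was taken. That of Ldhc ends at the start of the gene, whereas that of Ldha lies within the annotated span of the gene (chr7:46842274-46855627), before an internal start. Capitals mark TGACG on either strand and TGACGTCA, in which that motif occurs on both strands.
Ldhc, chr7:46861013-46861262: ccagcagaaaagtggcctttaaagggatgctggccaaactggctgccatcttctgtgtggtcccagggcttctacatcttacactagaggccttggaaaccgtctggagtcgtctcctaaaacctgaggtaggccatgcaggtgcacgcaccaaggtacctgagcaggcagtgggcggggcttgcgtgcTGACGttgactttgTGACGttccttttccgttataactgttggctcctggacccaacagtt
Ldha, chr7:46845554-46845803: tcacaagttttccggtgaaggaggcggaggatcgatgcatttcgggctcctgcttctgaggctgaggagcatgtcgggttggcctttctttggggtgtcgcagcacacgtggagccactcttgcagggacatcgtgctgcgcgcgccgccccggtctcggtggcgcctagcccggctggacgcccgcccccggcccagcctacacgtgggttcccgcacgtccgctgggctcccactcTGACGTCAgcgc
The window shown for Ldhc holds 2 separate TGACG matches and that for Ldha 1 TGACGTCA, whose 2 overlapping matches are its TGACG on each strand. The other window of Ldhc holds no TGACG, and the other window of Ldha holds it. Over all 32851 promoter windows 17.8% hold TGACG and 1.55% hold TGACGTCA. A match describes the sequence and says nothing of whether a factor binds there.

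Ldhc had 0, 0, 0 and 4 counts over sperm replicates 1 to 4, against 43 and 104 in testes. Ldha, the muscle-type subunit, had 3 counts in sperm replicate 2 only and 19 and 9 in testes, and Ldhb, the heart-type subunit, had 0 in sperm and 2 and 1 in testes. In testes the level per kilobase of Ldhc was 455 ± 270 (SD, n = 2) against 79.9 ± 39.4 for Ldha and Ldhb together. All sperm CPM values of Ldhc lay below both testes values, and the test was not passed (edgeR log2 fold change -3.24 ± 1.43 SE, adjusted p = 0.0708). It was called lower when sperm replicate 3 (edgeR adjusted p = 0.0104) or sperm replicate 4 (adjusted p = 0.0288) was left out, with TMM factors (0.0494), with DESeq2 size factors in edgeR (0.00735) and with the total of all transcripts as library size (0.0414). The log2 fold change ranged from -8.49 without sperm replicate 4 to -2.47 without replicate 2. At the testes level, 23.2, 7.78 and 12.6 counts would have been expected in sperm replicates 2 to 4. Ldhc took 71.0% and 92.5% of the family level in testes, 0% in sperm replicate 2 and 100% in replicate 4, each of the latter resting on at most 4 counts. The mean difference in share was -31.8 percentage points (exact permutation p = 1.0), and leaving out a sperm replicate turned its direction, to between -81.8 and 18.2. Ldhd, a lactate dehydrogenase for the D form, had 0 counts in sperm and 3 and 2 in testes.

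**Figure D5:**
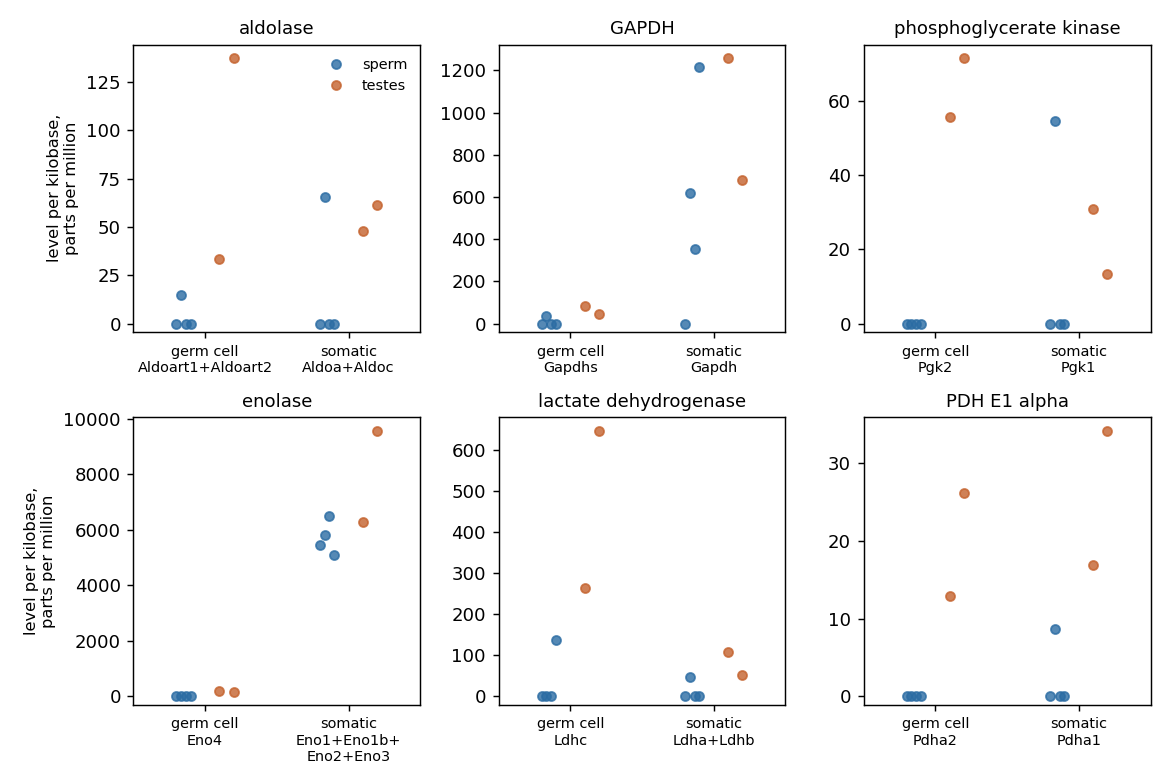
Level per kilobase (scaled to an NM_ total of 1000000, 1 point per sample) of the germ-cell isozymes and the somatic paralogues of 6 enzyme families, with sperm in blue and testes in orange. In testes, Ldhc and Pgk2 lie above their somatic paralogues and Gapdhs and Eno4 below, and most sperm points of the germ-cell isozymes are at 0.

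Pyruvate dehydrogenase links glycolysis to the citric acid cycle. The X-linked Pdha1 had 1 count in sperm replicate 2 only and 6 and 12 in testes (edgeR log2 fold change -2.27 ± 1.09 SE, adjusted p = 0.0992). Pdha2, its autosomal germ-cell retrogene, had 0 counts in the 4 sperm samples and 3.76 and 7.58 in testes, where it made up 43.2% and 43.4% of the family level per kilobase. Pdhb, the E1 beta subunit, had 10 counts in sperm replicate 3 alone, against 1 and 5 in testes. Dlat, the E2 component, had 1 count in sperm replicate 2 and 7 in testes replicate 2. Dld, the E3 component, had 0 counts in sperm and 10 and 8 in testes and was called lower (log2 change -5.26 ± 1.59 SE, adjusted p = 0.0187), with a bound of at least 1.77-fold lower.

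The bifunctional enzymes of the Pfkfb family set the level of fructose-2,6-bisphosphate, an activator of phosphofructokinase. Pfkfb2 was, with Eno1b, the only gene of the set with at least 3 counts in every sperm sample. It had 6, 7, 3 and 7 counts in sperm and 47 and 62.4 in testes, which was 142, 70.0, 89.5 and 129 CPM in sperm and 146 and 199 CPM in testes (edgeR log2 fold change -0.84 ± 1.24 SE, adjusted p = 0.633). Pfkfb3 had 0, 4, 0 and 12 counts in sperm and 3 and 7 in testes (log2 change 2.44 ± 1.61 SE, adjusted p = 0.245), and without sperm replicate 3 it was called higher.

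Taking the 7 germ-cell isozymes together, the sperm samples held 0, 5, 0 and 4 counts and the testes samples 140 and 216. On the CPM scale this was 0, 50.0, 0 and 73.6 in sperm and 433 and 686 in testes, and no sperm sample overlapped testes. Of the 5 isozymes tested, 2 were called lower, Pgk2 and Eno4, against 24.0% of all genes tested. All 5 had passed the filter only through testes, the group where they are high, so nothing is read from that count. At these depths a count of 0 in sperm does not show absence. Of the 33 genes, 15 would have been expected at 3 or more counts in sperm replicate 2 at the testes level, and 7 of those reached 3 counts while 4 were not listed. The same comparison gave 3 of 7 in replicate 1, 3 of 7 in replicate 3 and 6 of 8 in replicate 4, so the shortfall differed between samples. Genes entered this comparison by a high testes level, which favours a shortfall in sperm, and the same count over all genes was not made. In replicate 3 the genes short included Eno1 at 0 counts, where Eno1b had 143.

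Of 32 other genes of carbohydrate and pyruvate metabolism, 27 were listed, and 17 of those were at 0 in every sperm sample. Their summed level was 1250, 690, 507 and 405 CPM over sperm replicates 1 to 4, against 405 and 338 CPM in testes. Most of each sperm sum, and all of it in replicate 3, was the single gene Pcx, which was a small part of the testes sums. The sums therefore do not describe the other genes of this list. Only 5 passed the filter, of which edgeR called 1 higher and 2 lower, against 6.11% and 24.0% of all genes tested. The genes called lower, Fbp1 and Pgp, had passed only through testes, so the filter favoured a lower sperm value for them. Pcx, pyruvate carboxylase, which makes oxaloacetate from pyruvate, had 35, 55, 17 and 16 counts over sperm replicates 1 to 4, against 16 and 6 in testes. All sperm CPM values, 826, 550, 507 and 294, lay above those of testes, 49.6 and 19.1 (log2 change 3.68 ± 1.08 SE, adjusted p = 0.012). Fbp1, fructose-1,6-bisphosphatase of gluconeogenesis, had 0 counts in sperm and 9 and 9 in testes (log2 change -5.26 ± 1.59 SE, adjusted p = 0.0187). Pgp, phosphoglycolate phosphatase, had 9 counts in sperm replicate 1, 0 in replicates 2 to 4 and 11 and 19 in testes (log2 change -5.99 ± 2.11 SE, adjusted p = 0.026), so the left-out sample lay above both testes samples in CPM.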

How the data were processed

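RNA of 4 sperm and 2 testes samples was analysed. The deposited tables list transcripts above 0 with the authors' estimated counts, transcript lengths and FPKM values, with no sample columns beyond these. According to the study's methods, reads were aligned with SOAP2, whereas the submitters' processing notes name HISAT and mm10; the program that estimated the counts is not given in the sources used here. All 41 NM_ transcripts of the genes matched RefSeq records by accession.

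Estimated counts of NM_ rows were summed per gene, absent rows set to 0, rounded and divided by each sample's NM_ total (CPM). Level per kilobase divides the counts by transcript length. edgeR 4.0.16 (R 4.3.3) quasi-likelihood tests used genes with at least 5 counts in at least 2 of 5 samples, with no further scaling factor. Called genes had an adjusted p below 0.05 and a fold above 2. limma 3.58.1 on the deposited FPKM values (log2, pseudocounts 1 and 0.1), DESeq2 1.42.0, TMM and size-factor scaling, no filter, a replicate block and leaving out each sample were alternatives. Replicates differed beyond counting noise (chi-square per degree of freedom 4.91 to 12.5), so none were merged. Samples are pools of mice, so p-values measure the spread between these samples only. The fit was checked on simulated data. Changes were simulated only in genes with more than 5 expected counts in the smallest sample, so recovery of changes in sparser genes was not checked. Exact permutation tests used scipy 1.17.1.

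Named genes were the 7 germ-cell isozymes, their somatic paralogues, and genes called or with at least 3 counts in every sperm sample. The values of the remaining genes (Hk1, Hk2, Pfkp, Pfkm, Tpi1, Pgam1, Pgam2, Pkm, Ldhd, Pdhb, Dlat and Pfkfb3) are given outside this rule, after they were seen. The members and gene lists were chosen with earlier results of these data known. Peritubular markers summed to at most 10.0 CPM in sperm and 21.7 in testes, leukocyte markers to 40.0 and 21.7, epididymal epithelium markers to 269 and 178, and erythrocyte markers to 0 and 3.18. The 269 CPM came from 9 counts in sperm replicate 3, 5 of Epcam and 4 of Krt8. Of the other epididymal markers, Cdh1, Lcn5, Lcn8 and Crisp1 were at 0 in every sperm sample, and all of these but Lcn8 were listed in no sample.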

Additional observations from a re-analysis of the deposited data

Results flagged for a closer look

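The 24 genes with a value in any of the 4 sperm samples, and 3 sums over the genes, were tested for a sample far from the other 3, and 17 genes had such a sample, by Dixon's criterion for the gap over the range. The criterion's chance rate of about 5% is for normally distributed values and does not hold for counts this sparse. For 16 of the 17 the other 3 sperm samples were at 0, where the gap equals the range, so any count in a single sample gave the result. In 13 cases the sample was sperm replicate 2, which has the highest NM_ total: Pfkp, Aldoart2, Pdha1 and Dlat at 10.0 CPM, Aldoc, Gapdhs, Pgam1 and Eno4 at 20.0 CPM, Aldoa at 30.0 CPM, Ldha at 30.2 CPM, Pgk1 at 40.0 CPM, Eno2 at 50.0 CPM and Tpi1 at 70.0 CPM. In sperm replicate 4, Pgam2 stood at 55.2 CPM, Ldhc at 73.6 CPM and Hk2 at 147 CPM, the last with 20.0 CPM in replicate 2. In sperm replicate 3, Pdhb stood at 298 CPM from 10 counts, against 3.10 and 15.9 CPM in testes.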

How the results depend on the processing

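The 1 gene called higher and 5 called lower moved with the processing. The number called higher was 0 without the filter on low counts and 0 when Eno1 and Eno1b were summed, 2 over single transcripts, and 1 to 2 when a sample was left out. The number called lower was 9 with DESeq2 size factors, 1 with DESeq2, 0 without the filter, and 0 to 6 when a sample was left out. The replicate block over all 6 samples gave 1 higher and 0 lower; the samples share replicate numbers as names only (correlation of deviations -0.0279 and -0.0693). DESeq2 size factors shifted the median of all genes from -1.22 to -2.15. Log2 fold changes that turned were Gapdh (-1.003 to 0.0206 when a sample was left out, the last without testes replicate 1), Pdhb (-0.28 with limma and a pseudocount of 0.1, -3.86 with the block), Pkm (-0.43 with the block) and Tpi1 (-0.31 with size factors, -0.54 and -2.21 with limma and pseudocounts of 1 and 0.1, -4.93 to 1.196 when a sample was left out, the first without sperm replicate 2). The difference in members listed (-16.2) was -7.69 after thinning and -20.5 to -13.0 when a sample was left out. That in the share of NM_ counts (-0.225 percentage points) was -0.0369 against all transcripts, -0.318 with FPKM, -0.477 without Eno1b and -0.355 to -0.0947 when a sample was left out. The enolase share (-2.19) was -3.12 from counts and -2.79 to -1.58 when a sample was left out, and the PDH share (-43.3) -38.6 from counts and -43.6 from FPKM. Ranges when a sample was left out were -6.14 to -3.54 (GAPDH), -50.8 to -22.7 (aldolase), -84.3 to -64.3 (phosphoglycerate kinase), -43.4 to -43.2 (PDH) and -81.8 to 18.2 (lactate dehydrogenase). For aldolase, phosphoglycerate kinase and PDH, only sperm replicate 2 gave a sperm share. Leaving out another sperm sample could not change these differences, so their ranges show the testes samples only and not stability in sperm. The sperm share of 0% rested on 4 counts for phosphoglycerate kinase and 1 for PDH. Its upper 95% Wilson limits were 49.0% and 79.3% of family counts. The causes of the shifts with processing were not tested. In 226 comparisons with an alternative the direction and call stayed, 26 lost the call, 15 gained it and 8 turned. These include genes that were not called and stayed so. Of the alternatives that gave the gene a value, the call was kept in 13 of 14 for Eno1b, 8 of 15 for Eno1 and 7 of 13 for Eno4. It was kept in 8 of 12 for each of Pfkl, Pgk2 and Dld. Depth limits the sperm values, since 3 counts are 30.0 to 89.5 CPM there, and replicates differed beyond counting noise.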
